A study of Homo sapiens with 96 samples.

Results

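The 9 genes followed here encode factors of nonsense-mediated decay (NMD) and were measured in A549, a cell line derived from a lung adenocarcinoma, after inhibition of protein arginine methyltransferases (PRMTs). They are UPF1, UPF2, UPF3A, UPF3B, SMG1, SMG5, SMG6, SMG8, and SMG9. Chosen were all alternative splicing events that the deposited tables list under these gene symbols, which makes 279 events over 165 alternative segments, out of 239131 events in the whole series. Of these 279 events, 193 are skipped exons, 78 are mutually exclusive exons, 4 are alternative 3′ splice sites, 3 are alternative 5′ splice sites, and 1 is a retained intron. Reads sufficed to test 262 of them in at least 1 comparison with DMSO. Many events share a segment or a junction, so the events of a gene are not independent measurements.

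Poly(A)-RNA seq was analysed from 30 libraries in 10 groups of 3. Cells received GSK591, an inhibitor of PRMT5, at 1 µM for 2, 4, or 7 days, or MS023, an inhibitor of the Type I PRMTs, at 1 µM for 2, 4, or 7 days. Co-treated cells received GSK591 and MS023 at 1 µM each for 2 or 4 days. Controls were kept in 0.01% DMSO for 4 or 7 days. Inhibitor libraries of 2 and 4 days were both compared with DMSO of 4 days, so at 2 days the time in culture differs from that of the control. Those of 7 days were compared with DMSO of 7 days. No label names this control for the 7-day comparisons, and it was inferred because GSK591 and MS023 of 7 days share their control group. No source used here says that the libraries of a group came from separate cultures, and p-values then measure only the spread between these libraries. The libraries are called a, b, and c in the order of the tables, and a letter pairs nothing between groups. Between 72359972 and 110790627 reads per library were counted over all listed events, where 1 read can count in several events.

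NMD degrades mRNAs on which translation stops too early, most often upstream of an exon junction. UPF1 is the RNA helicase at its centre, and UPF2 and UPF3B connect UPF1 with the exon junction complex, while UPF3A is the paralog of UPF3B. SMG1 is the kinase that phosphorylates UPF1, SMG8 and SMG9 are subunits that restrain this kinase, and SMG5 and SMG6 bind phosphorylated UPF1, SMG6 being an endonuclease. Transcripts of several of these factors are themselves known substrates of NMD. The measure used is Ψ, the fraction of transcripts that include the alternative segment, and ΔΨ is Ψ with inhibitor minus Ψ with DMSO. Since Ψ is a share of the poly(A) RNA present, a form that is made more often and a form that is degraded less cannot be told apart.

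The sequences of some of the named segments come from GRCh37, the sequence of the hg19 build used in the tables, and are written 5′ to 3′ on the strand of the gene. They are shown because their inclusion separated GSK591 from MS023. Capitals mark the alternative segment, with 20 bases before it (63 for UPF3A exon 4, of which the last 43 belong to a longer form of that exon) and 10 bases after it.
UPF1, end of exon 7, chr19:18963861-18963923, plus strand: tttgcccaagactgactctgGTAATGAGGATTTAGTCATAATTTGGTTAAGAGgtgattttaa
UPF3A, exon 3, chr13:115048292-115048428, plus strand: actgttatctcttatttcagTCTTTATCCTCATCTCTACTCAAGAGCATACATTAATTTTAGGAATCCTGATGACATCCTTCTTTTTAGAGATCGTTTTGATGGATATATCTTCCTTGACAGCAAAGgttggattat
UPF3A, exon 4, chr13:115051714-115051885, plus strand: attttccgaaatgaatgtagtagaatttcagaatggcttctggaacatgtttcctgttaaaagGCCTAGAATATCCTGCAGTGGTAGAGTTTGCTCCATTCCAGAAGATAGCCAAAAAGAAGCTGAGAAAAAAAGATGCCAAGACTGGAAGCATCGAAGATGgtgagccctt
UPF3B, exon 8, chrX:118974599-118974667, minus strand: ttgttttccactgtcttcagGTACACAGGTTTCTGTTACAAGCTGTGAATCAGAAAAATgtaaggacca
A further segment is shown for its stop codon, with the first 30 of its 58 bases, where the capitals mark an in-frame TGA if translation comes from the annotated first exon.
SMG1, exon within intron 1, chr16:18911337-18911366, minus strand: attgactTGAtgcaaaacatcacaaaggct

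The UPF1 segment has 33 bases and lies between a pair of 5′ splice sites of exon 7, whose exon and intron bases read CTGgtaatg for the short form and GAGgtgatt for the long form, with exonic bases in capitals. It adds 11 codons without a stop in the reading frame of the annotation, within the region of the helicase domain known as its regulatory loop. UPF3A exon 3 has 107 bases and exon 4 has 99 bases, so that exon 4 keeps the reading frame. UPF3B exon 8 has 39 bases, or 13 codons, and also keeps the frame. Exons are numbered as in the Ensembl canonical transcript of each gene in GENCODE lifted to GRCh37, in which UPF3A exons 3 and 4 and UPF3B exon 8 are coding sequence, whereas the UPF1 segment is coding in 1 other annotated transcript and the SMG1 segment in 0.

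Few events of the 9 genes changed against DMSO, at shares near or below those over all events when all event types are pooled. Against DMSO, an event was called when its adjusted p was under 0.05 in a quasi-binomial model of the counts, with Benjamini-Hochberg adjustment over all tested events of its type. With GSK591, 4 of 132 tested events were called at 2 days (3.03%, against 5.06% of all tested events), 12 of 144 at 4 days (8.33%, against 8.55%), and 9 of 130 at 7 days (6.92%, against 6.24%). With MS023, 0 of 141 events were called at 2 days (background 1.68%), 2 of 136 at 4 days (1.47%, against 2.16%), and 1 of 119 at 7 days (0.84%, against 3.06%). At 2 days of MS023 the quasi-binomial test gave 11 events with an unadjusted p under 0.05, and limma on the log2 odds also called 0. With co-treatment, 15 of 152 events were called at 2 days (9.87%, against 9.97%) and 9 of 143 at 4 days (6.29%, against 11.6%). All tested events include retained introns and alternative 5′ splice sites, which were called more often than skipped and mutually exclusive exons. Most events of the 9 genes are of the latter types. Among skipped exons alone, 4.49%, 6.97%, and 4.93% were called with GSK591 at 2, 4, and 7 days. The shares were 1.65%, 2.07%, and 2.62% with MS023, and 9.14% and 10.4% with co-treatment at 2 and 4 days. Among mutually exclusive exons they were 1.72%, 7.05%, and 5.32% with GSK591, 0.933%, 1.37%, and 2.53% with MS023, and 7.76% and 9.38% with co-treatment. The 9 genes lay above both types with GSK591 at 4 and 7 days and with co-treatment at 2 days. In the other comparisons they lay below the share of skipped exons.

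The sizes of the differences were like those over all events. The median absolute ΔΨ of the tested events of these genes ranged from 0.00729 with MS023 at 2 days to 0.0137 with co-treatment at 2 days, where that of all tested events was 0.00946 and 0.0128. The calls fell on 25 of the 262 events tested in at least 1 comparison with DMSO, in 20 segments. The share of all events called in at least 1 comparison was not computed, so this count has no background beside it. UPF3A held 15 of the 25, SMG1 held 3, UPF2 and SMG9 held 2 each, and UPF1, UPF3B, and SMG5 held 1 each, while SMG6 with 17 listed events and SMG8 with 1 held none. The genes also differed in tests, with 288 of 1097 in UPF3A, 198 in SMG1, 56 in SMG6, and 6 in SMG8. The 8 comparisons share their DMSO libraries within a time, so their values are set side by side here and were not counted as independent.

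**Figure D1:**
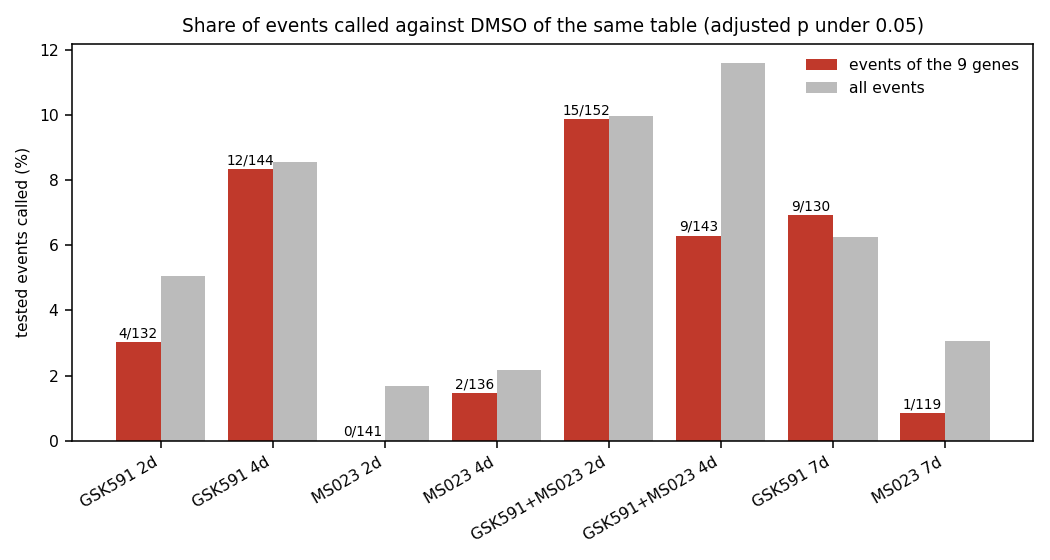
Share of tested splicing events called against DMSO (y axis, percent) in the 8 comparisons (x axis), for events of the 9 NMD genes (red) and for all events (grey), with the called and tested events of the 9 genes printed above each red bar. The red bar exceeds the grey bar in the comparison of GSK591 at 7 days, with 9 of 130 events, and lies below it in the others. The grey bars pool all event types and are not matched to the types of the 9 genes, which are mostly skipped and mutually exclusive exons.

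The long form of UPF1 exon 7 rose with GSK591 at every time. In DMSO at 4 days, Ψ of the 33-base segment was 0.182, 0.185, and 0.139 in libraries a, b, and c, and with GSK591 it was 0.29, 0.286, and 0.255 at 2 days and 0.302, 0.239, and 0.269 at 4 days. In DMSO at 7 days it was 0.22, 0.212, and 0.197, against 0.256, 0.271, and 0.408 with GSK591. In all 3 comparisons every GSK591 library lay above every DMSO library, although library c at 7 days stood well above the other two. ΔΨ was 0.108 at 2 days (adjusted p = 0.0109, quasi-binomial test across all events, as for the adjusted p-values that follow), 0.101 at 4 days (adjusted p = 0.00492), and 0.102 at 7 days (adjusted p = 0.0168). Each of these calls rested on single libraries. At 2 days it was lost without DMSO library c (adjusted p = 0.0638) or GSK591 library b (0.0924), at 4 days without GSK591 library a (0.0559), and at 7 days without DMSO library c (0.0879) or GSK591 library c (ΔΨ = 0.054, adjusted p = 0.406).

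With co-treatment, Ψ of this UPF1 segment was 0.191, 0.256, and 0.234 at 2 days and 0.273, 0.324, and 0.304 at 4 days. The co-treated libraries also lay above DMSO, and the difference passed the threshold at 4 days (ΔΨ = 0.132, adjusted p = 0.000176) and not at 2 days (ΔΨ = 0.0583, adjusted p = 0.162). With MS023 the group means were below those of DMSO, at 0.148 ± 0.00827 (SD, n = 3 here and below) at 2 days, 0.127 ± 0.0348 at 4 days, and 0.161 ± 0.0325 at 7 days, and no comparison was called (adjusted p = 0.75, 0.492, and 0.495). Set directly against MS023 of the same day, GSK591 gave a higher Ψ by 0.129, 0.143, and 0.15 at 2, 4, and 7 days, with adjusted p-values of 0.000395, 4.26e-06, and 1.66e-05. Between 132 and 388 reads per library lie behind these values. Reads of RNA that keeps the intron after exon 7 can count for the long form as well, and their share was not tested. The only retained intron listed for the 9 genes is an intron of 110 bases in UPF1, and it was called in 0 of 8 comparisons, with an absolute ΔΨ of at most 0.0108.

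**Figure D2:**
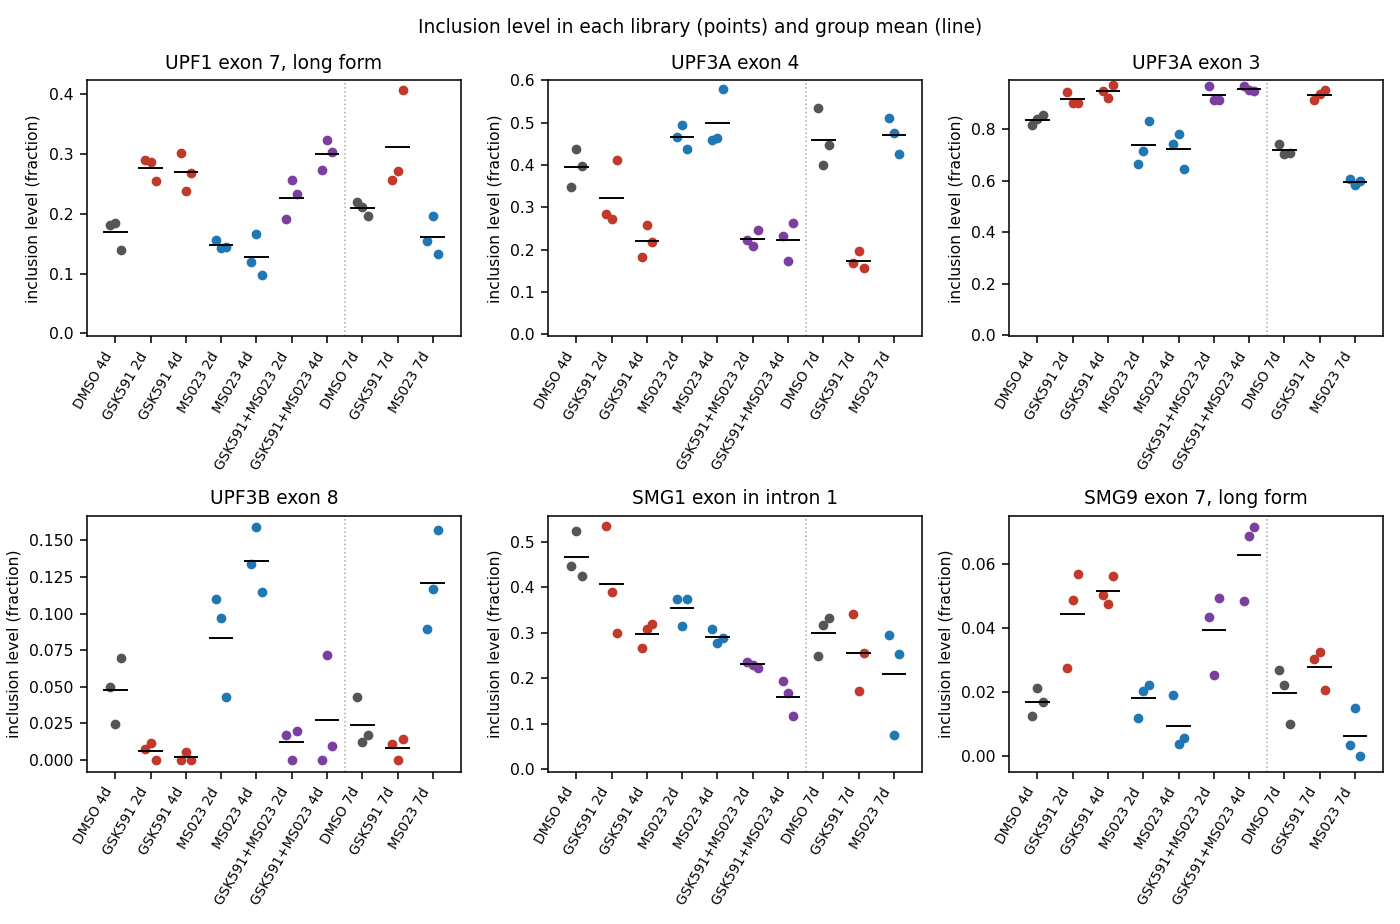
Ψ of 6 segments (y axis, fraction, with a scale of its own in each panel) in each of the 30 libraries (points) with the mean of each group (line), for DMSO (grey), GSK591 (red), MS023 (blue), and co-treatment (purple), with the 7-day groups right of the dotted line. UPF1 exon 7 rises from a mean of 0.169 in DMSO to 0.27 with GSK591 at 4 days, while UPF3A exon 4 falls from 0.395 to 0.22.

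UPF3A, the paralog of UPF3B, held most of the calls and has the most listed events. Its exon 4 is known to be skipped in part of its transcripts, and in transcripts that hold exons 3 and 5 this exon was included less often with GSK591 at 4 and 7 days and with co-treatment. In DMSO at 4 days Ψ of exon 4 was 0.349, 0.438, and 0.398, and in DMSO at 7 days it was 0.534, 0.401, and 0.446. With GSK591 it was 0.284, 0.273, and 0.412 at 2 days, 0.183, 0.259, and 0.218 at 4 days, and 0.168, 0.197, and 0.156 at 7 days. The groups overlap at 2 days and are apart at 4 and 7 days. ΔΨ was −0.0723 at 2 days (adjusted p = 0.327), −0.175 at 4 days (adjusted p = 0.000354), and −0.286 at 7 days (adjusted p = 6.41e-11). The effects at 7 and 4 days were not separated by the interaction test (adjusted p = 0.402).

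Co-treated libraries had a Ψ of exon 4 of 0.223, 0.208, and 0.246 at 2 days and of 0.233, 0.174, and 0.262 at 4 days, all below DMSO. Both differences were called (ΔΨ = −0.169, adjusted p = 0.000297, and ΔΨ = −0.172, adjusted p = 3.25e-05). With MS023, Ψ was 0.467, 0.494, and 0.438 at 2 days, 0.458, 0.463, and 0.579 at 4 days, and 0.51, 0.476, and 0.427 at 7 days. Every MS023 library of 4 days lay above the DMSO libraries, but no comparison passed the threshold (ΔΨ = 0.0712, 0.105, and 0.0107, adjusted p = 0.611, 0.265, and 0.91). Directly against MS023, Ψ of exon 4 between exons 3 and 5 was lower with GSK591, by a difference of −0.144 at 2 days, −0.28 at 4 days, and −0.297 at 7 days, with adjusted p-values of 0.00494, 3.07e-09, and 1.13e-11. The difference at 2 days was not called without GSK591 library a (adjusted p = 0.0539) or b (0.076). A further event holds the same exon 4 between exons 2 and 5, with 26 to 125 reads per library, and is given here after its values were seen. It went the other way at 2 days, from a mean Ψ of 0.488 with MS023 to 0.729 with GSK591 (a difference of 0.241 between the inhibitors, adjusted p = 0.0168), and it was called in 0 of 8 comparisons with DMSO.

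A form of exon 4 with 142 bases, which uses an acceptor 43 bases further upstream, is listed as an event of its own. The longer form does not keep the reading frame, and a stop codon follows in exon 5. Its event shares the 3′ end of the exon and the skipping junction with that of the 99-base form, so it is no independent measurement. Mean Ψ was 0.257 ± 0.00855 in DMSO at 4 days and 0.136 ± 0.0269 with GSK591 at 4 days (adjusted p = 0.00752, and 0.0781 without GSK591 library a), and 0.294 ± 0.043 in DMSO against 0.093 ± 0.00789 with GSK591 at 7 days (adjusted p = 1.54e-07). Its event counts reads within the exon that both forms share, so it does not isolate the 43 extra bases. The alternative 3′ splice site event, which sets both acceptors against each other among transcripts with exon 4, is below the limit of reads for named events, with 18 to 80 reads per library, and is given here after its values were seen. There the mean Ψ of the long form was 0.157 in DMSO and 0.404 with GSK591 at 4 days (adjusted p = 0.0186), the only one of its 8 comparisons with DMSO that was called. Reads of RNA that keeps the intron before exon 4 can count for the long form in this event.

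UPF3A exon 3 moved the other way. This event sets transcripts that join exons 2, 3, and 5 against transcripts that join exon 2 directly to exon 5, and it counts the same junction of exons 3 and 5 that counts as skipping of exon 4. The junction of exons 2 and 5 is its own, and it would shift the reading frame to a stop codon in exon 5. In DMSO at 4 days 29, 21, and 20 reads joined exon 2 to exon 5, and with GSK591 at 4 days 6, 10, and 4 did. At 7 days the numbers were 27, 35, and 39 in DMSO, 12, 8, and 6 with GSK591, and 45, 54, and 45 with MS023. Reads that skip both exons were thus fewest with GSK591 and most numerous with MS023 at 7 days.

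Ψ of exon 3 was 0.816, 0.84, and 0.856 in DMSO at 4 days and 0.743, 0.703, and 0.707 in DMSO at 7 days. With GSK591 it was 0.943, 0.903, and 0.901 at 2 days, 0.949, 0.921, and 0.971 at 4 days, and 0.912, 0.938, and 0.951 at 7 days, above every DMSO library of the comparison. ΔΨ of 0.0783 at 2 days did not pass the threshold (adjusted p = 0.218), while those of 0.11 at 4 days (adjusted p = 0.00953) and 0.216 at 7 days (adjusted p = 6.74e-08) did. The call at 4 days was lost without DMSO library a (adjusted p = 0.0717) or GSK591 library c (0.126). Co-treatment gave means of 0.933 ± 0.032 at 2 days and 0.958 ± 0.0114 at 4 days (adjusted p = 0.0348 and 0.00026), and the call at 2 days was lost without any of 4 of the 6 libraries.

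With MS023, Ψ of exon 3 was 0.663, 0.716, and 0.834 at 2 days, 0.744, 0.781, and 0.647 at 4 days, and 0.608, 0.582, and 0.598 at 7 days. These libraries lay below DMSO at 4 and 7 days and overlapped it at 2 days, but the differences of −0.0998, −0.113, and −0.122 were not called (adjusted p = 0.208, 0.195, and 0.144). The direct comparison of both inhibitors was called at each time, with Ψ higher with GSK591 by 0.178, 0.223, and 0.338 at 2, 4, and 7 days (adjusted p = 3.62e-05, 1.1e-07, and 3.96e-17).

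The level of Ψ in UPF3A depends on sequence that occurs more than once in the genome. All 30-base words of exons 3 and 5 occur at least 2 times in GRCh37, whereas those of exon 4 occur once. All 21 words tested across the junction of exons 3 and 5 are found unspliced in the genome, at up to 2 places. The same holds for the junction of exons 2 and 3. By contrast, 0 words were found for the junctions of exon 4 or for that of exons 2 and 5. Reads that skip exon 4 and reads that include exon 3 can therefore be assigned to other loci or left out, and reads from those loci can be counted here. How far this moved Ψ was not tested, and UPF3A levels are reported as uncertain.

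UPF3B, on chromosome X, encodes the link between UPF2 and the exon junction complex. Its exon 8 is a small exon that is left out of most UPF3B transcripts in these cells, and it moved in opposite directions with the inhibitors. In DMSO at 4 days Ψ was 0.0496, 0.0247, and 0.0694. With GSK591 it was 0.0079, 0.0117, and 0.0 at 2 days and 0.0, 0.00536, and 0.0 at 4 days, and with MS023 it was 0.11, 0.0971, and 0.043 at 2 days and 0.134, 0.159, and 0.115 at 4 days. All GSK591 libraries of 2 and 4 days lay below DMSO and all MS023 libraries of 4 days lay above it. In reads, 11, 6, and 16 supported inclusion in DMSO at 4 days, 0, 1, and 0 did with GSK591 at 4 days, and 27, 33, and 25 did with MS023 at 4 days, beside 117 to 188 reads of the skipping form in these libraries.

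ΔΨ of UPF3B exon 8 was −0.0414 at 2 days and −0.0461 at 4 days with GSK591 (adjusted p = 0.0453 and 0.00831), and 0.0355 at 2 days and 0.0884 at 4 days with MS023 (adjusted p = 0.561 and 0.0126). The call at 2 days of GSK591 was lost without any of 5 of the 6 libraries, with adjusted p-values up to 0.28. That at 4 days of GSK591 was lost without DMSO library c (adjusted p = 0.0699) or GSK591 libraries a (0.0649) or c (0.0602), and that at 4 days of MS023 without DMSO library b (0.206) or MS023 library b (0.121). At 7 days, Ψ was 0.0434, 0.0122, and 0.0169 in DMSO, 0.0112, 0.0, and 0.0146 with GSK591, and 0.0897, 0.117, and 0.157 with MS023. Here the MS023 libraries stood apart from DMSO (ΔΨ = 0.0972, adjusted p = 9.35e-06), and the GSK591 libraries overlapped it (ΔΨ = −0.0156, adjusted p = 0.432).

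Directly compared, UPF3B exon 8 was lower with GSK591 than with MS023 by a difference of −0.0769 at 2 days, −0.135 at 4 days, and −0.113 at 7 days, with adjusted p-values of 8.36e-05, 4.78e-09, and 9.6e-10. Co-treatment gave 0.0169, 0.0, and 0.0196 at 2 days and 0.0, 0.0721, and 0.00993 at 4 days, without a call against DMSO (adjusted p = 0.119 and 0.582). Library b of co-treatment at 4 days held 10 inclusion reads, against 0 and 1 in the other two. No 30-base word of this exon or of its neighbours recurred in the genome.

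**Figure D3:**
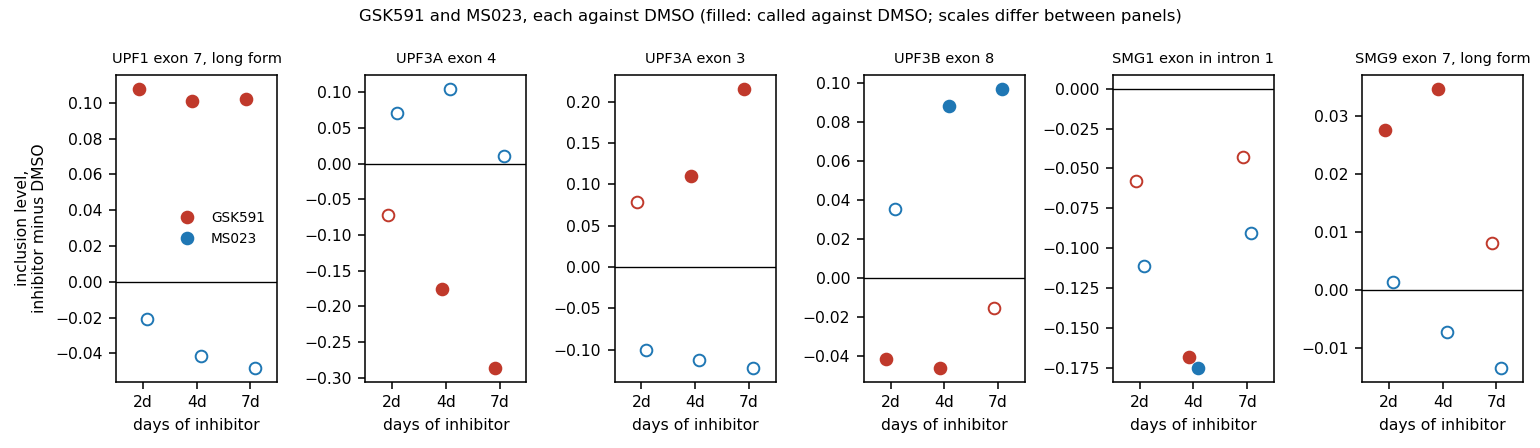
ΔΨ against DMSO (y axis, with a scale of its own in each panel) at 2, 4, and 7 days (x axis) of GSK591 (red) and MS023 (blue) for 6 segments, with filled points where the difference was called. For UPF3B exon 8 the points lie on opposite sides of 0 at each time, at −0.0461 and 0.0884 at 4 days, while for the SMG1 exon both inhibitors lie below 0.

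SMG1, the kinase of the pathway, was the gene with an exon called lower with each inhibitor alone. Both calls were at 4 days and against the same DMSO libraries. The 58-base exon lies within intron 1 of the canonical transcript, at chr16:18911309-18911366, and is part of 3 annotated transcripts, in 0 of which it is coding. An in-frame TGA starts at its base 8. In DMSO at 4 days Ψ was 0.447, 0.525, and 0.426. At 4 days it was 0.267, 0.309, and 0.32 with GSK591, 0.308, 0.277, and 0.289 with MS023, and 0.195, 0.168, and 0.117 with co-treatment. The 3 treated groups lay below DMSO, and the co-treated libraries lay below those of both single inhibitors.

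ΔΨ of the SMG1 exon at 4 days was −0.168 with GSK591 (adjusted p = 0.00799), −0.175 with MS023 (adjusted p = 0.00828), and −0.306 with co-treatment (adjusted p = 1.2e-09). GSK591 and MS023 differed by 0.00707 at 4 days, a difference that was not called (adjusted p = 1.0), and co-treatment was below GSK591 by a difference of −0.139 (adjusted p = 0.0183). At 2 days Ψ was 0.535, 0.39, and 0.3 with GSK591, overlapping DMSO, and 0.375, 0.316, and 0.374 with MS023, below it, and neither was called (adjusted p = 0.407 and 0.382). Co-treatment at 2 days gave 0.237, 0.23, and 0.224 and was called (ΔΨ = −0.236, adjusted p = 1.71e-05).

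At 7 days Ψ of the SMG1 exon was already 0.249, 0.317, and 0.332 in DMSO, below all DMSO libraries of 4 days. It was 0.341, 0.172, and 0.256 with GSK591 and 0.296, 0.0767, and 0.254 with MS023, overlapping DMSO, and neither was called (adjusted p = 0.736 and 0.64). The MS023 libraries of 7 days held as few as 19 reads on this event. The call with GSK591 at 4 days was lost without DMSO library b (adjusted p = 0.151) or GSK591 library a (0.0584), that with MS023 without DMSO library b (0.192) or MS023 library b (0.0687), and that of co-treatment against GSK591 without GSK591 library c (0.156) or co-treatment libraries b (0.0613) or c (0.151).

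SMG1 has near-identical copies on chromosome 16, so its counts are uncertain. Of the 30-base words of the exon, 17.2% recurred in the genome, as did 52.2% of those of the exon before it and 57.8% of those of the exon after it, up to 6 times, whereas 0 of 21 words across each of its 3 junctions was found unspliced. SMG1 exon 39 fell slightly with co-treatment at 2 days, from 1.0 in every DMSO library to 0.949, 0.986, and 0.973 (adjusted p = 0.0373), and its skipping shifts the frame to a stop codon in exon 40. The tables also set SMG1 exon 45 against exon 46 as mutually exclusive, although the canonical transcript holds both and reads within both exons count, so this Ψ is a ratio of their reads and does not measure the use of one in place of the other. It went from 0.475, 0.479, and 0.42 in DMSO at 4 days to 0.54, 0.54, and 0.566 with GSK591 at 4 days (adjusted p = 0.0443) and to 0.562, 0.563, and 0.562 with co-treatment at 2 days (adjusted p = 0.0156). These calls of SMG1 exons 39 and 45 were each lost without any of 4 or 5 of the 6 libraries.

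SMG9 and SMG8 form the complex that holds SMG1 in check. For SMG9, a long form of exon 7 rose with GSK591 at 2 and 4 days and with co-treatment, from a low Ψ in DMSO. The long form extends the exon by 434 bases into the intron, at chr19:44243825-44244258, and reaches an in-frame stop codon at base 46 of the extension. Reads within these 434 bases count for the long form, also where they come from RNA that keeps the whole intron. The share of such reads was not tested, so Ψ does not isolate the use of the distal splice site. Ψ was 0.0123, 0.0211, and 0.0169 in DMSO at 4 days, 0.0275, 0.0488, and 0.0569 with GSK591 at 2 days, and 0.0504, 0.0476, and 0.0563 with GSK591 at 4 days. With co-treatment it was 0.0434, 0.0254, and 0.0494 at 2 days and 0.0483, 0.0687, and 0.0715 at 4 days. All 4 groups lay above DMSO without overlap.

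ΔΨ of the SMG9 long form was 0.0276 and 0.0347 with GSK591 at 2 and 4 days (adjusted p = 0.000306 and 9.18e-06), and 0.0226 and 0.0461 with co-treatment (adjusted p = 0.00692 and 7.38e-08). These sizes depend on the division by effective length, since the segment is long. As shares of reads without it, the SMG9 differences were 0.0902 and 0.113 with GSK591 and 0.075 and 0.145 with co-treatment. With MS023 at 2, 4, and 7 days the means were 0.0181 ± 0.00541, 0.00942 ± 0.00835, and 0.00608 ± 0.00775, and no comparison was called (adjusted p = 0.959, 0.526, and 0.0916). At 7 days GSK591 was not called against DMSO (0.0277 ± 0.0064 against 0.0196 ± 0.0088, adjusted p = 0.407), and it was called against MS023 (adjusted p = 0.000498), as it was at 2 and 4 days (adjusted p = 0.00195 and 1.71e-08). The call of co-treatment at 2 days was lost without its library c (ΔΨ = 0.0176, adjusted p = 0.104).

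The other SMG9 event called against DMSO sets exon 6 against the long form of exon 7, of which the canonical transcript holds exon 6 and the short form of exon 7, and was listed for GSK591 at 2 days alone. This ratio of reads was 0.935, 0.924, and 0.934 in DMSO and 0.874, 0.837, and 0.847 with GSK591 (adjusted p = 0.0474), and the call was lost without any of 5 of the 6 libraries. It holds the same long form, with the same limit, and is no independent measurement. Between GSK591 and MS023 at 2 days a further SMG9 event of mutually exclusive exons, chr19:44241749-44241834, was called, with 0.453 for MS023 and 0.321 for GSK591 (adjusted p = 0.0353), and it is named after its values were seen. For SMG8, the only event is a 1911-base exon that covers the first canonical exon, listed in 6 of the 8 tables with Ψ from 0.974 to 1.0 over the libraries, and 0 comparisons were called.

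UPF2, which bridges UPF1 and the UPF3 proteins, changed with co-treatment. Its exon 9, of 109 bases at chr10:12021056-12021164, was included in nearly all transcripts in DMSO at 4 days, with 1.0, 0.993, and 1.0. With co-treatment Ψ was 0.905, 0.917, and 1.0 at 2 days and 0.899, 0.778, and 0.87 at 4 days. The groups overlap at 2 days (ΔΨ = −0.0569, adjusted p = 0.0445) and are apart at 4 days (ΔΨ = −0.149, adjusted p = 8.09e-06). Skipping of exon 9 shifts the reading frame to a stop codon in exon 10. With GSK591 and MS023 alone at 4 days Ψ was 0.966 ± 0.035 and 0.982 ± 0.0188, and neither was called (adjusted p = 0.177 and 0.669), while the difference of co-treatment from GSK591 at 4 days was −0.117 (adjusted p = 0.1). The call at 2 days was lost without any of 5 of the 6 libraries, with adjusted p-values up to 0.252.

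UPF2 exon 3, at chr10:12070744-12071523, is set against exon 4 as mutually exclusive, although the canonical transcript holds both, so this Ψ is also a ratio of reads on both exons. It rose with co-treatment at 2 days, from 0.62, 0.595, and 0.577 in DMSO to 0.681, 0.706, and 0.741 (ΔΨ = 0.112, adjusted p = 0.011). Without co-treatment libraries b or c the adjusted p was 0.0623 or 0.0951. The event is listed in 4 tables, with 437 to 1204 reads per library.

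SMG5 and SMG6 act on phosphorylated UPF1 at the end of the pathway. Over the 8 comparisons with DMSO, 1 of 148 tests in SMG5 and 0 of 56 in SMG6 were called. Of all tested events, 1.68% to 11.6% were called in a single comparison. SMG5 exon 16, of 159 bases and in frame, went from 0.965, 0.951, and 0.976 in DMSO at 4 days to 0.92, 0.911, and 0.93 with co-treatment at 2 days (ΔΨ = −0.0438, adjusted p = 0.0324), a call that was lost without any of 5 of the 6 libraries. With co-treatment at 4 days Ψ was 0.951 ± 0.00912 and was not called (adjusted p = 0.597). SMG6 had 17 events and 56 tests without a call. Its event with the most reads, exon 2 of 1759 bases, was listed with MS023 at 4 days alone, and Ψ was 1.0 in every DMSO library and 1.0, 0.968, and 1.0 with MS023 (adjusted p = 0.638).

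**Figure D4:**
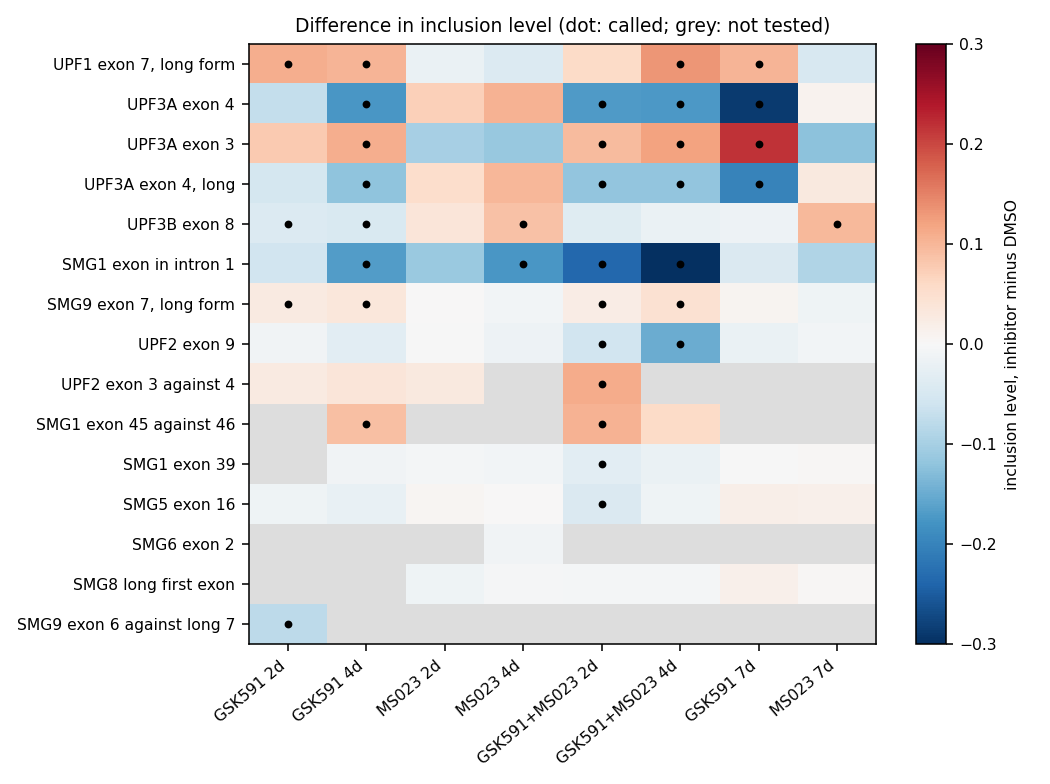
ΔΨ (colour, inhibitor minus DMSO) of the named events of the 9 genes (rows) in the 8 comparisons with DMSO (columns), with dots where the difference was called and grey where the event was not tested. UPF1 exon 7, UPF3A exons 3 and 4, UPF3B exon 8, the SMG1 exon, and the long form of SMG9 exon 7 have dots in 4 comparisons each, and UPF3B is the row whose dots take both colours.

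GSK591 was then compared directly with MS023 of the same day, over events listed in both tables. Of the events of the 9 genes, 10 of 108 were called at 2 days (9.26%, against 8.69% of all tested events), 11 of 111 at 4 days (9.91%, against 13.3%), and 18 of 95 at 7 days (18.9%, against 10.8%). They fell in 4 genes at each time, and in 9, 10, and 11 segments. At 7 days 13 of the calls were in UPF3A events, most of which hold exon 3, 4, or 5 of that gene, and 3 were in UPF3B. Co-treatment was compared with GSK591 alone to ask what MS023 adds, and 1 of 113 events was called at 2 days (0.885%, against 2.7%) and 1 of 113 at 4 days (0.885%, against 4.33%). The call at 4 days is that of the SMG1 exon, and the call at 2 days is UPF3A chr13:115047496-115047602, which went from 0.982 to 0.807 (adjusted p = 0.0368) and which was named after its values were seen.

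The effect at 7 days was compared with that at 4 days by an interaction term. For the 9 genes 0 of 94 events were called for GSK591 (1.81% of all events) and 0 of 89 for MS023 (0.112%) in the quasi-binomial model, and 11 and 6 events had an unadjusted p under 0.05. No other tool was run for this comparison. The 7-day effects on the named events are thus not shown to differ from the 4-day effects, whichever of them passed its own threshold.

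Of 23 further genes of the pathway (the exon junction complex, release factors, decapping and cap-binding proteins, and others), 22 had events. Between 3 of 249 events with MS023 at 2 days (1.2%) and 28 of 264 with co-treatment at 4 days (10.6%) were called against DMSO, near the shares over all events. By the same ranking the leading events were in MOV10, an RNA helicase that binds UPF1, and NCBP2, the small subunit of the nuclear cap-binding complex. The retained intron of MOV10, chr1:113241412-113242306, had a mean Ψ of 0.167 ± 0.0349 in DMSO at 4 days, 0.447 ± 0.0302 with GSK591 (adjusted p = 4.56e-09), and 0.101 ± 0.0129 with MS023 (adjusted p = 0.0143). An alternative 3′ splice site of MOV10 lies in the same intron and shares its sequence. The long form of the NCBP2 exon, chr3:196666122-196666263, had 0.755 ± 0.0458 in DMSO at 4 days, 0.889 ± 0.0777 with GSK591 (adjusted p = 6.4e-05), and 0.608 ± 0.0314 with MS023 (adjusted p = 0.0014).

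Limma, applied to log2 odds in place of counts, called fewer events in most comparisons, among these genes and among all events. Of the 55 called differences of named events, 16 were also called by it. Against DMSO these were the SMG1 exon and UPF2 exon 9 with co-treatment at 4 days, SMG1 exon 39 with co-treatment at 2 days, UPF3A exon 3 with co-treatment at 4 days, UPF3B exon 8 with GSK591 at 4 days, and the long form of SMG9 exon 7 with GSK591 and co-treatment at 4 days. Between GSK591 and MS023 they were UPF3A exons 3 and 4 and the long form of exon 4 at 4 and 7 days, and UPF1, UPF3B exon 8, and SMG9 at 4 days. The calls of UPF1 exon 7 against DMSO, of UPF3A exon 4 against DMSO, and of UPF3B exon 8 with MS023 against DMSO were among those that limma did not make, with adjusted p-values in limma of up to 0.33, 0.154, and 0.288.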

How the data were processed

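Poly(A)-RNA seq reads were trimmed with Trim Galore 0.6.5 and aligned to hg19 with STAR 2.4.2a per the submitters' processing notes, and the authors tabulated splicing events with rMATS in 8 tables, each of 1 inhibitor group against DMSO. The deposited values used here are counts of inclusion and skipping reads per event and library, on junctions and within exons, and the effective length of each form. The deposited p-value and FDR columns and the inclusion level columns hold the authors' own comparisons and were not used. The tables hold 123145 to 139307 events, and 309 of 312 skipped exons of the listed genes (99%) were flanked by AG and GT or GC in GRCh37. SKaTER seq and actinomycin D samples were not analysed here.

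Ψ was computed as inclusion reads per effective length over the sum of both forms per effective length. Each event with at least 10 reads in every library was fitted with a quasi-binomial model in R 4.3.3, whose dispersion was moderated with the prior of limma 3.58.1 within event type and held at 1 or above. The prior was fitted on events with at least 10 reads of the rarer form, a choice made after a test on simulated data. F test p-values were adjusted with Benjamini-Hochberg within event type and comparison over all tested events, and called at 0.05. Inhibitor groups were set against DMSO, GSK591 against MS023, co-treatment against GSK591, and the 7-day against the 4-day effect. Libraries of a group differed by more than sampling noise (chi-square per degree of freedom 1.6 to 3.15 over pairs of libraries, each pair given by its lowest value over the comparisons). Named were at most 3 segments per gene, from events with a mean of at least 50 reads, ranked by how many of the 8 comparisons with DMSO were called and then by the size of ΔΨ, and for genes without a call the event with the most reads. The 9 genes, the other genes of the pathway, and the tests were chosen with earlier results of these data known. Alternatives were limma on the log2 odds with 0.5 added to each count, limits of 1 and 20 reads, adjustment over all event types together, counts without effective lengths, leaving out each library, and, chosen after seeing the data, leaving out SMG1. A further gene of the pathway is not reported here.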

Additional observations from a re-analysis of the deposited data

How the results depend on the processing

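The counts of called events of the 9 genes stayed within 1.5 times under adjustment over all event types and under a limit of 20 reads, for all 15 comparisons each, and under a limit of 1 read for 14 of 15, where co-treatment against GSK591 at 4 days had 2 calls. With limma on the log2 odds, 3 of 13 counts stayed within that limit. Against DMSO limma called 0, 2, and 1 events with GSK591 at 2, 4, and 7 days, 3 with co-treatment at 2 days, and 0 with MS023 at each time, and it called 1 and 7 between GSK591 and MS023 at 2 and 7 days and 0 and 0 for co-treatment against GSK591 at 2 and 4 days. Over all events limma also called fewer, for example 287 in place of 5672 with GSK591 at 2 days and 5 in place of 2459 with MS023 at 4 days. The cause was not tested, and limma was not run for the 7-day against the 4-day effect. Without SMG1, MS023 at 4 days had 1 call and co-treatment against GSK591 at 4 days had 0, since the SMG1 exon was the call that was left out.

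Leaving out each library in turn gave 1 to 3, 5 to 11, and 6 to 9 calls with GSK591 at 2, 4, and 7 days, 6 to 13 and 8 to 9 with co-treatment at 2 and 4 days, and 0 to 0, 0 to 2, and 1 to 3 with MS023 at 2, 4, and 7 days. It gave 6 to 10, 8 to 11, and 14 to 18 calls between GSK591 and MS023 at 2, 4, and 7 days, 0 to 2 for co-treatment against GSK591 at both times, and 0 to 0 for the 7-day effects. The counts that moved by over 1.5 times were those without DMSO 4d library c (1), GSK591 2d library b (1), or c (2) with GSK591 at 2 days, without GSK591 4d library a (5) or c (7) with GSK591 at 4 days, without DMSO 4d library a (9) or c (9) or co-treatment 2d library a (6) or c (7) with co-treatment at 2 days, without DMSO 4d library b (0) or MS023 4d library b (0) with MS023 at 4 days, without DMSO 7d library c (3) or MS023 7d library b (2) with MS023 at 7 days, and without GSK591 2d library a (6) between GSK591 and MS023 at 2 days. For co-treatment against GSK591 the single call at 2 days became 2 without co-treatment 2d library b and 0 without any other library, and that at 4 days became 2 without GSK591 4d library b and 0 without GSK591 4d library c or co-treatment 4d library b or c. Leaving out 1 library in turn gave 330 refits of the 55 called differences of named events, of which 263 stayed called. None changed direction, which could not happen where the libraries of the compared groups did not overlap.

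The test uses counts without effective lengths, so leaving out the division cannot change a call, and only the differences were recomputed. All 55 called differences kept their direction, but some sizes moved by over 1.5 times. The SMG9 long form rose by 0.113 in place of 0.0347 with GSK591 at 4 days and by 0.145 in place of 0.0461 with co-treatment at 4 days, and UPF2 exon 9 changed by −0.0926 in place of −0.149 with co-treatment at 4 days. UPF3A exon 3 rose by 0.07 in place of 0.11 with GSK591 at 4 days, UPF2 exon 3 against exon 4 rose by 0.0635 in place of 0.112, and SMG5 exon 16 and SMG1 exon 39 changed by −0.0225 and −0.0126 in place of −0.0438 and −0.0308 with co-treatment at 2 days. No paired analysis was possible because the columns of the tables carry no replicate numbers. Read numbers limit the small levels most, as UPF3B exon 8 rests on 0 to 36 inclusion reads per library.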
